A study of Mus musculus with 6 samples.

Results

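The 6 genes described here encode the mouse ISG15 conjugation and deconjugation system: Isg15, Uba7, Ube2l6, Herc6, Trim25 and Usp18. They were chosen by name, with earlier results of these data known. Their listed transcripts were summed per gene, and all 6 were found among 26094 genes in the deposited table. RNA sequencing covered 6 libraries of 4T1, a mouse mammary carcinoma line. Limch1_OE (n = 3 libraries) was infected with a PLVX-ires-neo lentivirus carrying the mouse LIMCH1 sequence, and Vector (n = 3 libraries) received the empty control vector. Both kinds of cell grew in RPMI medium with 10% serum, penicillin and streptomycin, and both were put under antibiotic selection 48 h after infection to give stable lines. The labels do not name the promoter that drives the insert, and they do not say whether a line was a clone or a pool. Replicates came from the sample titles; nothing in the labels says that they were separate infections or cultures, so the p-values given here reflect library-to-library spread that could be technical only. A pair of label fields counts upward through the series (cell line 4T1 to 4T6, genotype Limch1_OE to Limch3_OE) and was not used.

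ISG15 is an interferon-induced modifier built of a pair of ubiquitin-like domains, and it is joined to other proteins through a cascade that parallels ubiquitination. UBA7 activates ISG15, UBE2L6 carries it as the conjugating enzyme, a ligase transfers it to the target, and USP18 removes it again. In mouse the main ligase is HERC6, which takes the place that HERC5 has in human cells. TRIM25 is a ubiquitin ligase best known for its part in RIG-I signalling and is also reported to ligate ISG15. USP18 has a separate role at the interferon receptor, where it binds IFNAR2 and dampens signalling. The genes are classic targets of interferon signalling, which acts through the interferon-stimulated response element (ISRE) in promoters.

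The ISRE core was searched for in promoter windows because the 6 genes moved together. RefSeq windows (build GRCm38.p6, the mm10 assembly), which hold 250 bases before and 50 bases after a gene's start, were found for 5 of the 6 members, all but Usp18. The motif searched on both strands was GAAA, any 2 bases, and GAAA again. It occurred in 3.44% of all 32851 windows and in 1 of the 5 member windows, that of Isg15. There it occurred 3 times in overlapping steps on the strand of the gene, between 78 and 57 bases before the start. The 250 bases before the Isg15 start are shown with these 22 bases in capitals, because Isg15 is the modifier itself and the only member whose window held an exact match (chr4:156200819-156201068, minus strand, printed 5′ to 3′).
Isg15: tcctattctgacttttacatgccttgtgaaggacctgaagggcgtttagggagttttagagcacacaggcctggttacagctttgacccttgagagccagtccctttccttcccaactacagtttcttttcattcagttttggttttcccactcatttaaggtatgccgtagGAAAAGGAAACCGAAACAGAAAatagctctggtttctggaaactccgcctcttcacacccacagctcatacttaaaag

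A longer form, in which CT follows the second GAAA, was searched after those promoters had been seen, allowing 1 of its 10 fixed letters to differ. It was found in 3 of the 5 member windows (Isg15, Uba7 and Trim25) and in 3.71% of all windows. The closest stretches of Uba7 (chr9:107975529-107975558) and Trim25 (chr11:88999388-88999417) are shown as 30 bases on the plus strand, which is the strand of both genes. Capitals mark the best match, which lies on the opposite strand in both. Relative to the start in its window, the Uba7 match lies 29 to 18 bases before, and the Trim25 match begins 6 bases before and runs past it. By the gene coordinates given below, both matches (107975538 to 107975549 and 88999397 to 88999408) lie inside the gene.
Uba7: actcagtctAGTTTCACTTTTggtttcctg
Trim25: ctcctgttcAGTTTCGATTCCttcctcgct
The best match differed at 2 letters in the Herc6 window and at 4 letters in the Ube2l6 window. Of all windows, 30.4% held a match that differed at 2 letters or fewer. A match describes the letters only, and binding was not measured.

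The libraries themselves can be described briefly. Values are FPKM, fragment counts scaled by transcript length and by the size of the library. They allow a rough comparison between genes and between libraries but do not remove differences in library make-up, which matters most for small changes. The sequencing depth behind the values is unknown. All transcripts together came to 421767 to 425064 FPKM per Limch1_OE library and 414837 to 416242 FPKM per Vector library. Limch1 was at 23.31 to 25.69 FPKM in Limch1_OE libraries and at 0.1 to 0.25 FPKM in Vector. All 6 epithelial markers were present in both groups, and 3 of them were lower in Limch1_OE by limma while none was higher. Of all tested genes 14.4% were called lower and 20.2% higher. The tight-junction gene Cldn7 was at 5.82 to 7.91 FPKM in Limch1_OE libraries and 23.23 to 24.88 FPKM in Vector (log2 fold change -1.65, limma adjusted p = 4.77e-06), and Epcam (-0.44, limma adjusted p = 2.44e-04) and Cdh1 (-0.18, 0.0143, and 0.0549 without Vector replicate 3) fell less. The keratin gene Krt8 was at 282.95 to 321.61 FPKM in Limch1_OE libraries and 309.19 to 335.82 FPKM in Vector, and Krt8, Krt18 and Krt19 did not pass. Of 6 leukocyte markers 4 were listed, and they summed to at most 0.15 FPKM in any Limch1_OE library and 0.04 FPKM in any Vector library. Ptprc, which defines leukocytes, was at 0 in 5 of the 6 libraries. The 5 endothelial and fibroblast markers that were listed summed to 0.19 to 0.36 FPKM in Limch1_OE libraries and 0.33 to 0.50 FPKM in Vector. Limch1_OE replicate 1 stood apart on the second principal component (14.37, against -4.41 and -10.61 for the other Limch1_OE libraries). Its share of mitochondrially encoded RNA was 8.73%, against 6.31 and 6.48% in the other Limch1_OE libraries and 4.76 to 5.57% in Vector. The nuclear RNA Malat1 was also higher in Limch1_OE (77.59 to 91.46 FPKM) than in Vector (40.23 to 45.19 FPKM). So was the nuclear RNA Neat1 (37.15 to 55.1 FPKM against 19.54 to 24.05 FPKM). Gapdh was at 8.48, 8.35 and 9.04 FPKM in Limch1_OE libraries. In Vector it was at 9.57 and 9.39 FPKM in replicates 1 and 2 and at 19.92 FPKM in replicate 3. The part of these differences in the results that follow was not tested. Each member's fold change was also computed without each library in turn, and all 6 calls held. Leaving out 1 library cannot separate a difference that all libraries of a group share, such as those in mitochondrial RNA and Malat1.

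All 6 members fell in Limch1_OE, and no Limch1_OE library overlapped a Vector library for any of them. The decline was deepest for the protease gene Usp18 and the modifier gene Isg15, intermediate for the conjugating enzyme Ube2l6 and the ligase Herc6, and smallest for the activating enzyme Uba7 and for Trim25. The median log2 fold change of the members was -2.39, beside 0.04 over all 11842 genes tested. As background, 14.4% of all tested genes were called lower, 20.2% were called higher, 20.5% had every Limch1_OE library below every Vector library, and 28.6% had every Limch1_OE library above. These shares stand for 1706 genes called lower and 2388 called higher; with median-ratio scaling of the libraries the split was 2052 lower and 1900 higher. Fold changes are Limch1_OE minus Vector on log2(FPKM + 1), which understates the change of low genes, and adjusted p-values are from limma, by the Benjamini-Hochberg method over the whole set of tested genes, with a threshold of 0.05. All members reached 1 FPKM in all 6 libraries, so none entered the test through its Vector values alone. In RNA from whole cultures, fewer cells expressing a gene and less RNA per cell cannot be told apart.

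The modifier gene Isg15 (ENSMUSG00000035692, mm10 chromosome 4, 156199424 to 156200818, minus strand) has 1 annotated transcript, which is protein-coding. It was at 24.41, 29.2 and 29.4 FPKM in Limch1_OE replicates 1 to 3, against 312.04, 307.94 and 386 FPKM in Vector replicates 1 to 3. The groups lay far apart, and Vector replicate 3 was the highest library while the other Vector libraries were close to each other. The means were 27.7 ± 2.83 FPKM in Limch1_OE libraries and 335 ± 43.9 FPKM in Vector (SD, n = 3 each), so the Vector mean was 12.1 times the Limch1_OE mean. The log2 fold change was -3.55 (SE 0.10, 95% interval -3.77 to -3.32, limma adjusted p = 2.27e-08). Among the tested genes Isg15 stood at the 98.7th percentile of level in Vector libraries on average and at the 75.1st in Limch1_OE libraries.

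Uba7, the activating enzyme dedicated to ISG15 (ENSMUSG00000032596, chromosome 9, 107975505 to 107984060, plus strand), was the lowest member in every library. Its transcripts summed to 3.22, 3.39 and 3.39 FPKM in Limch1_OE, against 10.41, 11 and 12 FPKM in Vector. The sums were tight within each group, at 3.33 ± 0.10 FPKM in Limch1_OE libraries and 11.1 ± 0.80 FPKM in Vector (SD, n = 3 each). The log2 fold change was -1.48 (SE 0.07, 95% interval -1.65 to -1.32, limma adjusted p = 1.04e-06), and the Vector mean was 3.34 times the Limch1_OE mean. The pseudocount weighs most on this member, whose log2 ratio of mean FPKM was -1.74.

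The tight sum of Uba7 hid a large scatter among its 15 listed transcripts, of which 1 is annotated as protein-coding and 10 as retained introns. The protein-coding transcript Uba7-201 was listed at 0, 1.53 and 0.73 FPKM in Limch1_OE libraries and at 3.67, 1.87 and 3.56 FPKM in Vector. Its share of the gene was 0, 45.1 and 21.5% in Limch1_OE, against 35.3, 17.0 and 29.7% in Vector, so the groups overlapped in share. In Limch1_OE replicate 1 a transcript annotated for nonsense-mediated decay, Uba7-214, held 61.8% of the gene, whereas it held 13.9 to 16.2% in the other Limch1_OE libraries and 3.07 to 16.8% in Vector. Retained-intron transcripts together were at 0.81, 1.19 and 2.15 FPKM in Limch1_OE libraries and at 6.39, 8.65 and 6.42 FPKM in Vector. Uba7-201 had the highest mean of the 15 transcripts over the 6 libraries, and on its own its log2 fold change was -1.27. The call ended when every gene was represented by its most abundant transcript (limma adjusted p = 0.0719) and held when only protein-coding transcripts were summed (limma adjusted p = 0.0318).

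**Figure D1:**
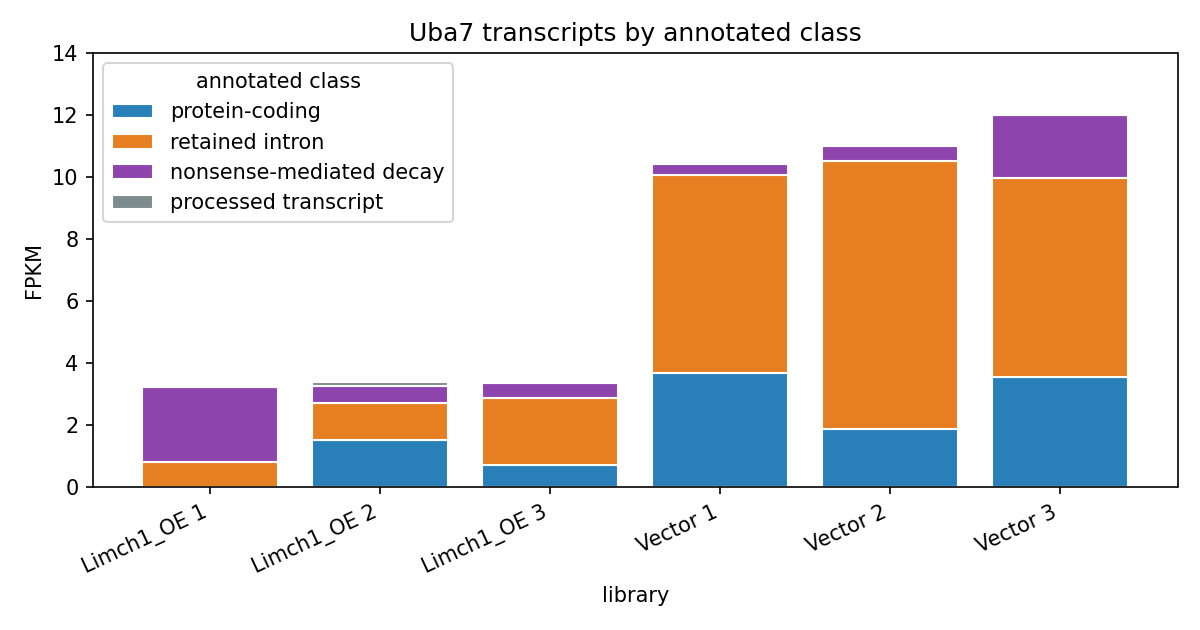
Stacked FPKM (vertical axis) of the listed Uba7 transcripts by annotated class in each library. The total height is 3.22 to 3.39 FPKM in Limch1_OE libraries and 10.41 to 12 FPKM in Vector, while the protein-coding part varies between 0 and 1.53 FPKM in Limch1_OE libraries and between 1.87 and 3.67 FPKM in Vector.

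Ube2l6 encodes the conjugating enzyme (ENSMUSG00000027078, chromosome 2, 84798828 to 84810335, plus strand). It was at 8.6, 9.21 and 8.66 FPKM in Limch1_OE, against 71.34, 66.96 and 69.51 FPKM in Vector. Values within a group differed by little, and the groups lay far apart. The means were 8.82 ± 0.34 FPKM in Limch1_OE libraries and 69.3 ± 2.2 FPKM in Vector (SD, n = 3 each). The log2 fold change was -2.84 (SE 0.05, 95% interval -2.96 to -2.72, limma adjusted p = 1.89e-09). The protein-coding transcripts held 98.61 to 98.95% of the gene in Limch1_OE and 98.71 to 98.85% in Vector replicates 2 and 3. In Vector replicate 1 they held 79.7%, because a processed transcript, Ube2l6-203, was listed at 14.19 FPKM there and at no more than 0.41 FPKM in any other library.

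Herc6 encodes the main mouse ISG15 ligase (ENSMUSG00000029798, chromosome 6, 57581000 to 57664632, plus strand). It was at 7.84, 7.38 and 6.87 FPKM in Limch1_OE, against 32.06, 28.88 and 31.85 FPKM in Vector. The means were 7.36 ± 0.49 FPKM in Limch1_OE libraries and 30.9 ± 1.78 FPKM in Vector (SD, n = 3 each), and the lowest Vector library was far above the highest Limch1_OE library. The log2 fold change was -1.93 (SE 0.07, 95% interval -2.09 to -1.78, limma adjusted p = 9.58e-08). The protein-coding transcript carried 90.5 to 92.2% of the gene in Limch1_OE and 90.9 to 93.5% in Vector. A noncoding gene that overlaps Herc6 on the same strand, Gm45193, was at no more than 0.02 FPKM in Limch1_OE libraries and 0.22 FPKM in Vector.

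Trim25, the RIG-I and ISG15 ligase (ENSMUSG00000000275, chromosome 11, 88999376 to 89020293, plus strand), changed least among the members. It was at 39.42, 43.46 and 41.08 FPKM in Limch1_OE, against 108.07, 108.64 and 107.07 FPKM in Vector. The Vector libraries were nearly equal, and every one was above every Limch1_OE library. The means were 41.3 ± 2.03 FPKM in Limch1_OE libraries and 108 ± 0.79 FPKM in Vector (SD, n = 3 each). The log2 fold change was -1.37 (SE 0.05, 95% interval -1.47 to -1.26, limma adjusted p = 1.04e-07), so Trim25 still ran at 0.383 of its Vector mean. Of its 3 annotated transcripts, 2 are listed, and the principal one carried nearly all of the sum.

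Usp18, the ISG15 protease (ENSMUSG00000030107, chromosome 6, 121245906 to 121270917, plus strand), changed most. It was at 6.73, 7.62 and 7.67 FPKM in Limch1_OE, against 171.56, 167.74 and 175.25 FPKM in Vector. The libraries of each group were close to each other and the groups far apart. The means were 7.34 ± 0.53 FPKM in Limch1_OE libraries and 172 ± 3.76 FPKM in Vector (SD, n = 3 each). The log2 fold change was -4.37 (SE 0.06, 95% interval -4.50 to -4.24, limma adjusted p = 9.99e-10). By log2 fold change Usp18 ranked 5 from the lowest of the 11842 tested genes, Isg15 ranked 19, Ube2l6 ranked 41, Herc6 ranked 79, Uba7 ranked 125 and Trim25 ranked 144. A noncoding gene on the opposite strand within Usp18, Gm44148, was at no more than 0.27 FPKM in Limch1_OE libraries and 0.09 FPKM in Vector. For each of the 6 members the exact two-sided permutation test of group means gave p = 0.1, the lowest value 3 against 3 libraries can reach.

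**Figure D2:**
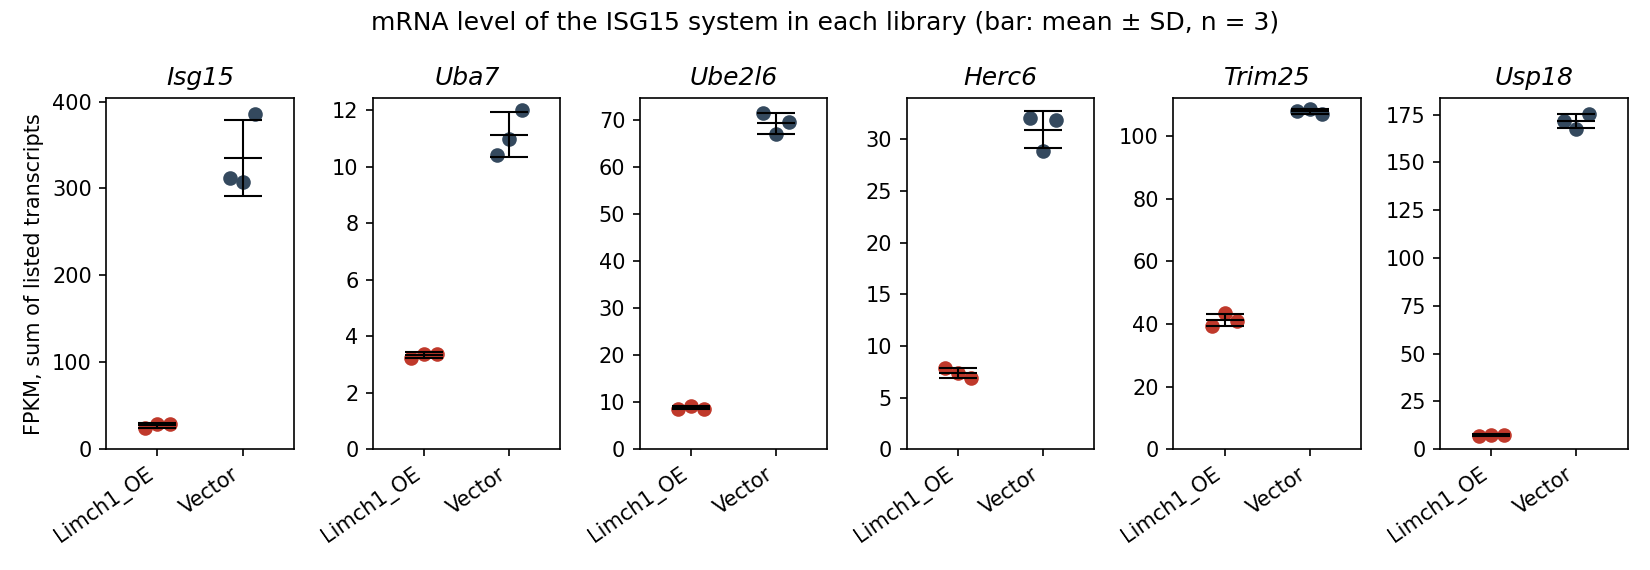
FPKM (vertical axes, each starting at 0 with its own scale) of the 6 members in the 3 Limch1_OE and 3 Vector libraries, with points for libraries and bars for the mean and SD. Every Limch1_OE point lies below every Vector point, from Usp18 at 7.34 against 172 FPKM to Trim25 at 41.3 against 108 FPKM.

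Because the members changed by different amounts, their order by level differed between the groups. In each Limch1_OE library Trim25 was highest, followed by Isg15 and then Ube2l6, and Uba7 was last. In each Vector library the order was Isg15, Usp18, Trim25, Ube2l6, Herc6 and Uba7. Herc6 and Usp18 were neighbours in Limch1_OE that did not differ beyond their spread, with Herc6 higher in replicate 1 and Usp18 higher in replicates 2 and 3. Summed over the 6 genes, the level was 90.22 to 100.26 FPKM in Limch1_OE libraries and 691.16 to 781.68 FPKM in Vector. Trim25 made up 42.3 to 43.7% of that sum in Limch1_OE and 13.7 to 15.7% in Vector, and Usp18 made up 7.46 to 7.90% in Limch1_OE and 22.4 to 24.3% in Vector. Isg15 made up 27.1 to 30.3% in Limch1_OE and 44.2 to 49.4% in Vector.

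**Figure D3:**
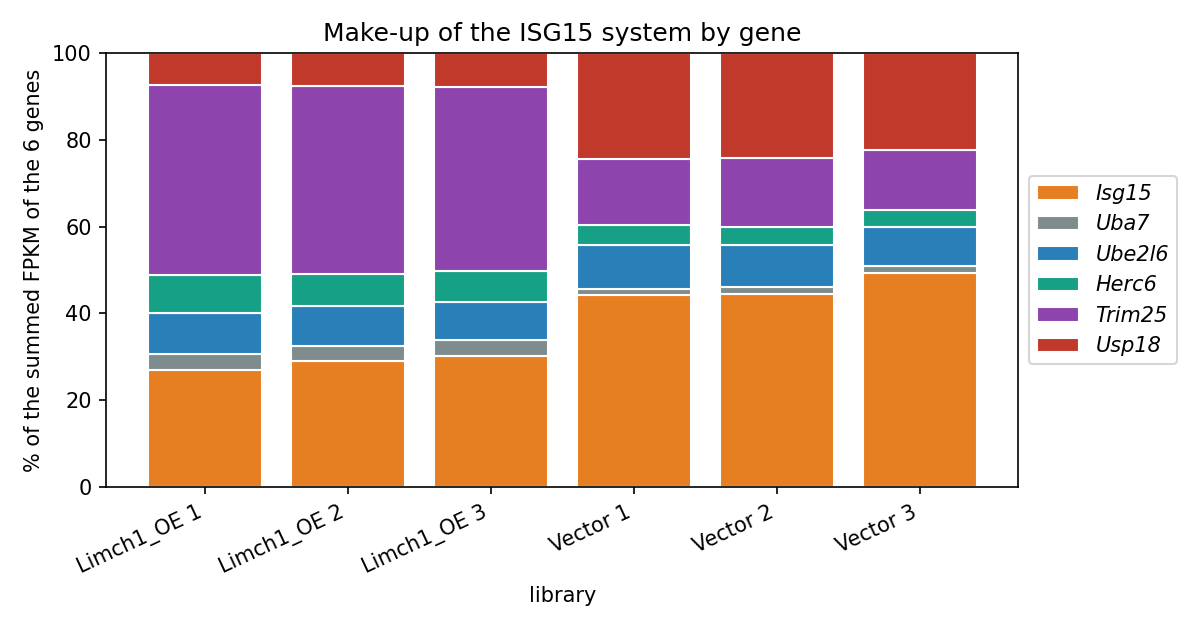
Share of each gene in the summed FPKM of the 6 members (vertical axis, percent) in each library. Trim25 takes the largest share in Limch1_OE (42.3 to 43.7%) and Isg15 in Vector (44.2 to 49.4%).

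Relative levels of modifier, enzymes and protease were compared within each library. Per length, there were 3.63, 3.83 and 3.83 Isg15 transcripts for each Usp18 transcript in Limch1_OE, against 1.82, 1.84 and 2.2 in Vector. In contrast, there were 2.84, 3.17 and 3.39 Isg15 transcripts for each Ube2l6 transcript in Limch1_OE, against 4.37, 4.60 and 5.55 in Vector. The ratio of Herc6 to Usp18 was 1.16, 0.969 and 0.896 in Limch1_OE, against 0.187, 0.172 and 0.182 in Vector. Relative to the modifier and to the ligase, the protease mRNA was thus lower in Limch1_OE than in Vector, without overlap of the groups. On the log2(FPKM + 1) scale the groups did not overlap in any of the 15 ratios between members. These ratios share 6 genes and are not independent, and the share without overlap among ratios of other genes was not computed. For single genes, 20.5% of all tested genes had every Limch1_OE library below every Vector library, and 28.6% had every one above. The difference in log2 ratio was widest for Trim25 over Usp18, at 3.01 (Limch1_OE minus Vector), and narrowest for Uba7 over Trim25, at -0.12. The narrow one depended on the scale and was -0.32 with a pseudocount of 0.1. In that ratio the groups nearly touched, at -3.2598 in Limch1_OE replicate 1 and -3.2569 in Vector replicate 1. Each of the 15 exact two-sided permutation tests gave p = 0.1, and 0.1 after Benjamini-Hochberg adjustment, which is the lowest this design can give. With the most abundant transcript, or with protein-coding transcripts alone, 13 of the 15 ratios were without overlap.

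Other enzymes reported to act on ISG15 differed little between the groups. Of 7 genes on that list 5 were tested, of which 2 rose, none fell and 3 did not pass, with a median log2 fold change of 0.20. The shares over all tested genes were 20.2% called higher and 14.4% called lower. The ligase gene Arih1 was at 26.73, 24.5 and 22.86 FPKM in Limch1_OE libraries and 22.22, 21.14 and 20.75 FPKM in Vector (log2 fold change 0.20, SE 0.06, limma adjusted p = 0.0428). Usp21, a deubiquitinase reported to cleave ISG15, was at 16.89, 18.33 and 19.49 FPKM in Limch1_OE libraries and 15.82, 14.6 and 13.24 FPKM in Vector (0.31, SE 0.08, limma adjusted p = 0.0157). Usp16, reported to cleave ISG15 as well, had a log2 change of 0.21 (limma adjusted p = 0.141), Usp5 of -0.16 (0.0755) and Usp14 of -0.13 (0.0829). The small calls depended on single libraries and on the processing. Arih1 passed without Limch1_OE replicate 3 but not without Limch1_OE replicate 1 (limma adjusted p = 0.0985) or 2 (0.0978) or Vector replicate 1 (0.0650), 2 (0.108) or 3 (0.120), and Usp21 did not pass without Vector replicate 3 (0.0519). Without a filter on low values neither Arih1 (limma adjusted p = 0.0996) nor Usp21 (0.0566) passed, and without a variance trend Arih1 did not (0.0650). With the most abundant transcript Arih1 (limma adjusted p = 0.0862) and Usp21 did not pass, although the Usp21 value was larger, at 1.44 on the log2 scale (adjusted p from limma 0.364). With protein-coding transcripts alone Usp21 was at 0.24 (limma adjusted p = 0.0960). Without Limch1_OE replicate 3, Usp16 was called higher (0.32, limma adjusted p = 0.0276) and Usp5 lower (-0.20, limma adjusted p = 0.0408). With median-ratio scaling, Usp5 (-0.20) and Usp14 (-0.16) were called lower and Arih1 was not called (limma adjusted p = 0.0838).

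The relatives of the members in the ubiquitin system showed small differences. Of 10 tested genes 2 rose and 1 fell, beside 20.2% called higher and 14.4% called lower over all tested genes. The median log2 fold change of the 10 was 0.02. Ube2l3, the closest relative of Ube2l6 and a ubiquitin-conjugating enzyme, was at 67.49, 66.8 and 66.43 FPKM in Limch1_OE libraries and 72.38, 65.39 and 69.86 FPKM in Vector, a log2 fold change of -0.05 (SE 0.05, 95% interval -0.16 to 0.06). Uba1, the main ubiquitin-activating enzyme, had a log2 change of -0.15 (limma adjusted p = 0.0986), whereas Uba2, a subunit of the SUMO-activating enzyme, rose by 0.20 (limma adjusted p = 0.00881). Among the HERC genes, Herc3 fell by 0.41 (limma adjusted p = 0.00726) with 4.17, 4.04 and 4.05 FPKM in Limch1_OE libraries and 5.23, 6.58 and 5.59 FPKM in Vector. Herc2 rose by 0.20 (limma adjusted p = 0.0294), and Herc1 (0.07) and Herc4 (0.12) did not pass. The Herc2 call ended with median-ratio scaling (limma adjusted p = 0.0562) and without Limch1_OE replicate 2 (0.0929), Vector replicate 1 (0.104) or Vector replicate 2 (0.0813). It also ended with the most abundant transcript (0.120) and with protein-coding transcripts alone (0.0548).

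Most other ubiquitin-like modifiers were also near their Vector levels. Of 12 tested genes 2 fell, none rose and 10 did not pass, beside 14.4% called lower and 20.2% called higher over all tested genes. The median log2 fold change of the 12 was 0.03. Ubb, a polyubiquitin gene, was at 441.77, 483.48 and 490.53 FPKM in Limch1_OE libraries and 561.99, 601.42 and 560.15 FPKM in Vector (log2 fold change -0.28, limma adjusted p = 0.00651). Sumo3 fell by 0.18 (limma adjusted p = 0.0409), but not with quantile normalization (0.125), no filter on low values (0.0943) or no variance trend (0.0741), nor without Limch1_OE replicate 1 (0.0880) or 3 (0.107) or Vector replicate 1 (0.135) or 3 (0.108). With the most abundant transcript it was at -0.42 (limma adjusted p = 0.00327). Nedd8 had a log2 change of 0.07 (limma adjusted p = 0.426). In each Vector library Isg15, at 307.94 to 386 FPKM, was higher than Nedd8, at 38.88 to 43.03 FPKM; in Limch1_OE Isg15, at 24.41 to 29.4 FPKM, was lower than Nedd8, at 40.65 to 46.43 FPKM.

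**Figure D4:**
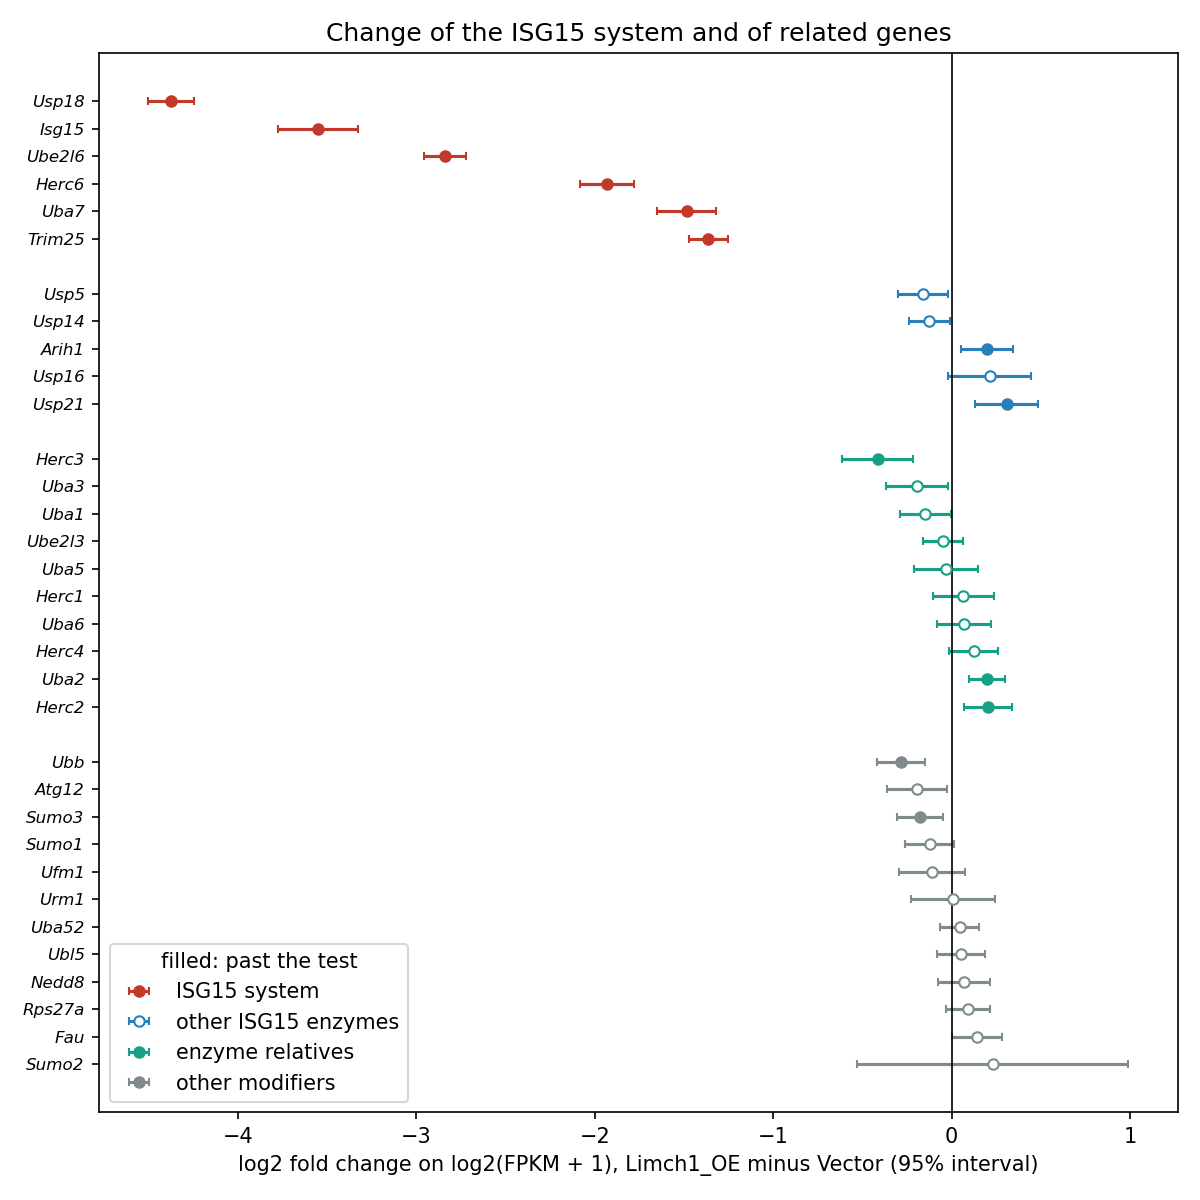
Log2 fold change on log2(FPKM + 1), Limch1_OE minus Vector (horizontal axis, bars for the 95% interval), of the members and of the tested genes of 3 lists: other ISG15 enzymes, enzyme relatives and other ubiquitin-like modifiers. The members lie between -4.37 and -1.37, and the genes of the 3 lists between -0.41 and 0.31.

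Of all tested genes 14.4% were called lower and 20.2% higher. Of 14 genes whose proteins are reported to carry or bind ISG15, 5 fell, 3 rose and 6 did not pass. The median log2 fold change of the 14 was -0.08. Those that fell were the antiviral GTPase Mx1 (-2.66), the RNA sensors Ifih1 (-1.68) and Ddx58 (RIG-I, -1.23), and the kinase Eif2ak2 (-1.21), all of them interferon-induced, and the replication clamp Pcna (-0.21). Mx1 was at 0.15, 0.08 and 0.1 FPKM in Limch1_OE, against 6.4, 5.16 and 6.54 FPKM in Vector, so it entered the test through its Vector values alone. Its log2 fold change was -4.87 with a pseudocount of 0.1, and with the most abundant transcript or protein-coding transcripts alone it was too low to be tested. Those that rose were the ubiquitin ligase Nedd4 (0.35), the transcription factor Irf3 (0.34) and the endosomal sorting gene Tsg101 (0.23). When genes were represented by their most abundant transcript, Nedd4 (0.15, limma adjusted p = 0.847) and Irf3 (0.81, limma adjusted p = 0.146) no longer passed, the Irf3 value being larger than that of the gene sum. With protein-coding transcripts alone, Nedd4 missed the threshold (0.16, limma adjusted p = 0.799), while Irf3 passed at 0.66 (limma adjusted p = 0.00248). Of 5 genes linked to Trim25 or to RIG-I signalling, 4 fell. The 4 were Dhx58 (-2.85), Ddx58 (also among the 14 above), the RIG-I ligase Rnf135 (-0.90) and Zc3hav1, an antiviral RNA-binding protein (-0.65). The adaptor gene Mavs had a log2 change of -0.05 (limma adjusted p = 0.497).

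Of 9 genes of interferon signalling upstream of the members, 7 were tested. Among these 7, 3 fell and 2 rose, beside 14.4% called lower and 20.2% called higher over all tested genes. The median log2 fold change of the 7 was -0.11. The transcription factor genes Irf7 (-3.97), Stat2 (-2.07) and Irf9 (-1.18) fell. The kinase genes Jak1 (-0.11, limma adjusted p = 0.116, and 0.0439 with median-ratio scaling) and Tyk2 (0.09, limma adjusted p = 0.198) did not pass. Ifnb1 and Socs1 stayed below 1 FPKM throughout and did not enter the test. Every Limch1_OE replicate read 0 for Ifnb1, whereas Vector replicates 1 to 3 read 0.29, 0.29 and 0.34 FPKM. Socs1 overlapped between the groups (0.13 to 0.26 FPKM against 0.16 to 0.29 FPKM). Without a filter on low values all 9 genes were tested, of which 4 were called lower and 2 higher. Both receptor chains rose. Ifnar1 was at 24.19, 26.78 and 26.15 FPKM in Limch1_OE libraries and 19.67, 21.12 and 18.94 FPKM in Vector, a log2 fold change of 0.35 (SE 0.06, limma adjusted p = 0.00302). Ifnar2, whose product binds USP18, was at 38.16, 44.06 and 37.44 FPKM in Limch1_OE libraries and 23.71, 24.06 and 21.52 FPKM in Vector, a log2 fold change of 0.76 (SE 0.07, limma adjusted p = 1.17e-04).

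For each member, the tested genes with the nearest profile were found by the root mean square difference of log2(FPKM + 1) over the 6 libraries, after each gene's own mean was subtracted. Nearest to Usp18 were Cmpk2 (difference 0.03 on the log2 scale), Rsad2 (0.10) and Gm2619 (0.10). Nearest to Isg15 were Mx2 (0.07), Lgals9 (0.09) and Ifit1 (0.11), and nearest to Ube2l6 were Oasl2 (0.05) and Irgm2 (0.05). Herc6 was nearest to Ifi211 (0.05), Mal2 (0.05) and Gbp4 (0.06), Uba7 to H2-Q6 (0.05), Oas1c (0.05) and Tmem229b (0.07), and Trim25 to Clu (0.04), Shisa5 (0.05) and H2-Q5 (0.05). No member was among the 3 nearest genes of another member. The measure includes the size of the change, so members with unlike fold changes lie apart by it.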

How the data were processed

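The deposited table gives FPKM per transcript for 6 libraries, to 2 decimals, as the authors computed them, per the file headers. Per the submitters' processing notes, the tools were STAR 2.7.10, StringTie 2.2.1, fastp 0.23.2 and featureCounts 2.0.1 with build mm10, in no stated order; the annotation, strand setting and treatment of shared reads are not given there. Splitting reads among overlapping transcripts can move single transcripts more than a gene's sum.

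Transcripts (77865) were summed per gene, and symbols and coordinates came from GENCODE M21. Genes that reached 1 FPKM in 3 or more libraries were tested on log2(FPKM + 1) with limma 3.58.1 in R 4.3.3 (eBayes with an intensity trend). The fit was also run on simulated data with independent noise and fewer changed genes than were called here. That run cannot show how the fit performs on these libraries. The table gives no counts, so depth is unknown, and precision is the SD over 3 libraries. Members, related lists, named genes (the members, the listed genes and the 3 nearest profiles of each member) and tests were chosen with earlier results of these data known. Alternatives changed the pseudocount, filter, scaling, transcript summary, variance trend, replicates and pairing. Some genes of these lists and profiles are not reported here and stay out of the list counts. Protein sequences were not used here.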

Additional observations from a re-analysis of the deposited data

How the results depend on the processing

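Each member's fold change was recomputed under 16 alternatives, 96 values in all. None changed sign, and 95 kept the call; the exception was Uba7 when each gene was represented by its most abundant transcript (-1.27, limma adjusted p = 0.0719), where 5 members were called. Leaving out each library in turn kept all 6 members called, with fold changes from -4.40 to -4.32 for Usp18, -3.61 to -3.44 for Isg15, -2.87 to -2.82 for Ube2l6, -1.98 to -1.89 for Herc6, -1.53 to -1.43 for Uba7 and -1.40 to -1.33 for Trim25. Over all tested genes, 1706 were called lower and 2388 higher. These counts were 999 and 997 with the most abundant transcript, 1424 and 1534 with protein-coding transcripts only, and 2052 and 1900 with median-ratio scaling. Without single libraries they ranged from 1285 to 1553 lower and from 1597 to 2225 higher. With the replicate block 1589 and 2219 were called and all 6 members stayed lower. Herc2 (limma adjusted p = 0.0558) and Sumo3 (0.0727) lost their calls. The labels do not say whether equal numbers pair the samples. Same-numbered libraries correlated at -0.002, 0.046 and 0.059 in their deviations from the group means, and libraries with unlike numbers at -0.067 to 0.027. Not every library correlated best with its own number, and so few libraries cannot decide whether they are paired. Among 37 other genes of the lists, 32 of 590 values lost a call, 5 gained one and none reversed a call. The keratin genes, Sumo2, Malat1, Neat1, Gapdh, Limch1 and the nearest-profile genes were not among these 37. The looser ISRE form, chosen after seeing the data, matched 3 member windows in place of 1. The causes were not tested.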
